A study of Mus musculus with 9 samples.

Results

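The simple epithelial keratins *Krt7*, *Krt8*, *Krt18* and *Krt19* were measured by RNAseq in FVB MOE cells, a line of murine oviductal epithelial cells from the FVB mouse strain that was derived as a single clone of secretory cells. The genes were taken by symbol and stood in 4 of the 23332 gene rows of each sample. Each sample had 48 h of hormone starvation before 24 h of treatment with 0.1% DMSO as the solvent control, 1 nM 17-beta-estradiol (E2) or with 100 nM 4-hydroxytamoxifen (4OHT), the active metabolite of tamoxifen, in 3 samples per condition. No condition combined E2 with 4OHT, E2 was part of the medium in which the line is normally grown, and nothing in the labels says whether the 3 samples of a condition came from separate cultures. The values are FPKM, in which the fragments of a gene are divided by the length of its transcript and by the mapped total of the sample, so that levels of different genes are compared per length. The 4 genes were chosen by their FPKM in DMSO, E2 and 4OHT, with the differences between these conditions already known. Their levels and differences are therefore described with their spread, and no test of these genes is given.

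Keratins are the intermediate filament proteins of epithelial cells. A filament forms only when an acidic type I chain pairs with a basic type II chain, and the filaments link desmosomes and hemidesmosomes across the cell and protect it from mechanical stress. *Krt8* (type II) and *Krt18* (type I) encode the pair that appears first in development and that typifies single-layered epithelia. *Krt7* (type II) and *Krt19* (type I) encode further chains of ductal and glandular epithelia, and *Krt19* encodes the smallest keratin, which lacks the usual tail domain.

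Type II genes lie on mouse chromosome 15 and most type I genes on chromosome 11, but *Krt18* is a type I gene that lies beside *Krt8* in the type II cluster. In the GENCODE annotation of GRCm38, the assembly that mm10 names, *Krt7* spans chr15:101411043-101430313 on the plus strand, *Krt8* spans chr15:101996698-102004482 on the minus strand and *Krt18* spans chr15:102028180-102032027 on the plus strand. *Krt19* spans chr11:100140810-100148665 on the minus strand. The starts of *Krt8* and *Krt18* are 23.7 kb apart and the genes point away from each other, whereas *Krt7* lies 566.4 kb from *Krt8*. *Krt7* overlaps the antisense gene *Gm671*, and *Krt8* overlaps the noncoding *Gm36026* on the other strand. Whether strand was used in counting is not stated, so that reads of such overlapping genes cannot be told apart.

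RefSeq promoter sequences (GRCm38.p6, from C57BL/6J mice and not from the FVB strain) matched 3 of the 4 genes. They are shown because the neighbours *Krt8* and *Krt18* had nearly the same profile over the samples and *Krt7* had another one. The likeness was not particular to neighbours, since *Krt19*, on chromosome 11 and without a matched promoter, also came close to *Krt8*. The bases lie before the start that RefSeq gives, and those inside a leader annotated in GENCODE were left out. The *Krt7* window is chr15:101412153-101412401 on the plus strand. It lies inside the *Krt7* span given above, since GENCODE holds longer transcripts that start upstream of the RefSeq start. The *Krt8* window is chr15:102004483-102004592 on the minus strand and the *Krt18* window is chr15:102027966-102028179 on the plus strand. Each is written 5′ to 3′ on the strand of its gene, and capitals mark a GC box (GGGCGG, or CCGCCC on the other strand) or 1 arm of an estrogen response element (GGTCA).

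Krt7: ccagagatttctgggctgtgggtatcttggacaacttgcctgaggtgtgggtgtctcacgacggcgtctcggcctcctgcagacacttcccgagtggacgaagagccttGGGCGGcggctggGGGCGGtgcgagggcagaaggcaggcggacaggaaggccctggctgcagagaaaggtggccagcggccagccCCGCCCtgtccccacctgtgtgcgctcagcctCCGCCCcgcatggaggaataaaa

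Krt8: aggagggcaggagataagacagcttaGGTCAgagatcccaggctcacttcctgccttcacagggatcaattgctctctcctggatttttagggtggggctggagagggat

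Krt18: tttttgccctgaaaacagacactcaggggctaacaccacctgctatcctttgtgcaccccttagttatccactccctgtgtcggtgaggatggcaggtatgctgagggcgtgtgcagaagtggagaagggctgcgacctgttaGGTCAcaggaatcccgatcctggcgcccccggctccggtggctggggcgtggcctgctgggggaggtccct

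The *Krt7* promoter held 4 GC boxes, a motif found in 32.7% of the 32851 mouse promoter windows of 250 bases. The *Krt8* and *Krt18* promoters held 1 such arm each, and 35.2% of all windows held at least 1. The full estrogen response element palindrome (GGTCANNNTGACC), which stood in 0.0639% of all windows, was not found in the 250 bases before the RefSeq start of any of the 3 genes, and no bases before the upstream GENCODE start of *Krt7* were searched. The same was true of the AP-1 site (TGANTCA, 6.75% of windows) and the TATA box (TATAAA, 12.4% of windows). Both strands were searched, the single arm is a part of the palindrome, and these matches are letters in a window and not measured binding sites.

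All 4 genes were strongly expressed in every sample. Among the 23332 gene rows of a sample, *Krt18* stood between place 97 and place 195, *Krt8* between 136 and 238, *Krt7* between 84 and 378, and *Krt19* between 342 and 729. None of the 4 was listed at 0 in any sample, although 266 other rows were at 0 in some sample while the median of their nonzero values was 5 FPKM or more. The range over the 9 samples was widest for *Krt7*, with a highest level 4.17-fold above the lowest, and it was 2.18-fold for *Krt19*, 1.87-fold for *Krt8* and 1.86-fold for *Krt18*.

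Of the type II genes, *Krt7* was at 439, 222 and 267 FPKM in DMSO replicates 1, 2 and 3. It was at 927, 748 and 775 FPKM in the E2 samples and at 353, 301 and 316 FPKM in the 4OHT samples. Every E2 sample was above all 6 others, and the 4OHT samples lay within the DMSO range. *Krt8* was at 334, 418 and 465 FPKM in DMSO, at 468, 553 and 623 FPKM in E2 and at 380, 473 and 484 FPKM in 4OHT. The lowest E2 sample was just above the highest DMSO sample and below the upper 2 of the 4OHT samples.

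Of the type I genes, *Krt18* was at 428, 510 and 549 FPKM in DMSO, at 607, 725 and 799 FPKM in E2 and at 466, 591 and 580 FPKM in 4OHT. The E2 samples were above all others, with replicate 1 of E2 close to replicates 2 and 3 of 4OHT. *Krt19* was at 112, 155 and 167 FPKM in DMSO, at 168, 206 and 243 FPKM in E2 and at 132, 184 and 186 FPKM in 4OHT. The lowest E2 sample was only slightly above the highest DMSO sample and inside the 4OHT range.

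**Figure D1:**
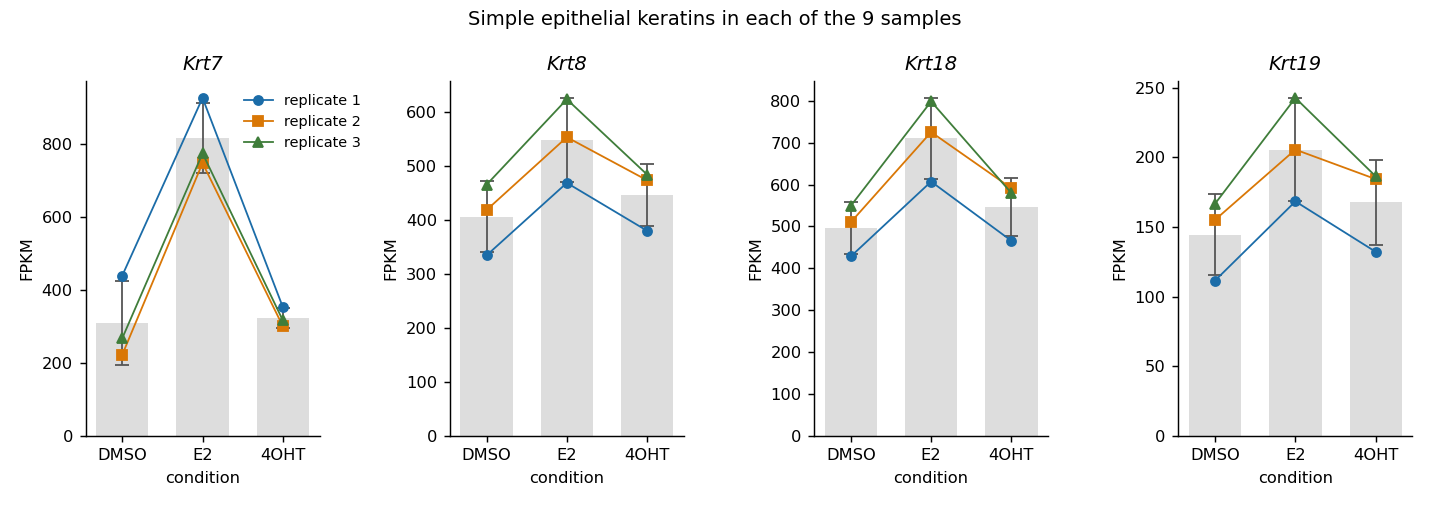
FPKM (vertical axes, starting at 0) of the 4 simple epithelial keratins in DMSO, E2 and 4OHT, with 1 point per sample, lines joining samples of the same replicate number, grey bars for the mean of 3 samples and error bars for the SD. The E2 samples of *Krt7* sit between 748 and 927 FPKM, above all DMSO and 4OHT samples, while those of *Krt8* and *Krt19* overlap with 4OHT.

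The order of the genes by mean level differed between E2 and the other conditions, though not in every sample. In DMSO, *Krt18* had the highest mean with 496 ± 61.7 FPKM (SD, n = 3), followed by *Krt8* with 406 ± 66.3, *Krt7* with 310 ± 115 and *Krt19* with 144 ± 29.1. The ranges of *Krt18*, *Krt8* and *Krt7* overlapped, *Krt7* was the highest of the 4 in DMSO replicate 1, and *Krt19* was below the others in each sample. In E2, *Krt7* came first with 817 ± 96.4 FPKM, ahead of *Krt18* with 710 ± 96.6, *Krt8* with 548 ± 77.5 and *Krt19* with 206 ± 37.1. The ranges of *Krt7* and *Krt18* overlapped there, with *Krt18* the higher of them in E2 replicate 3, and so did those of *Krt18* and *Krt8*. In 4OHT the order was that of DMSO, with 546 ± 69.5 FPKM for *Krt18*, 445 ± 57.3 for *Krt8*, 323 ± 26.9 for *Krt7* and 168 ± 30.8 for *Krt19*, and the ranges of *Krt18* and *Krt8* again overlapped while that of *Krt7* was below both.

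The comparison of E2 with DMSO asked which transcripts respond to estrogen in these cells. All 4 keratins were higher in E2 in each of the 3 same-numbered pairs, and *Krt7* differed most. For *Krt7* the E2 sample was 2.11-fold, 3.37-fold and 2.90-fold above the DMSO sample of replicates 1, 2 and 3. The mean log2 difference was 1.45, and the SD of the 3 pair differences was 0.34. The standard error from limma was 0.23, and 0.14 when the replicate number was taken as a block. Standard errors here and below pool the spread over all 3 conditions and are moderated by that of other genes. They are not the spread of the pair differences alone. The smallest *Krt7* pair difference was in replicate 1, where the DMSO level was the highest of the 3, and without replicate 1 the mean log2 difference was 1.64.

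The other 3 genes were higher by similar and smaller amounts. *Krt18* was 1.42-fold, 1.42-fold and 1.45-fold above DMSO in the 3 pairs, a mean log2 difference of 0.52 (SE 0.14, and 0.038 with the block). *Krt19* was 1.51-fold, 1.33-fold and 1.46-fold above DMSO, a log2 difference of 0.51 (SE 0.21, and 0.049 with the block). *Krt8* was 1.40-fold, 1.32-fold and 1.34-fold above DMSO, a log2 difference of 0.44 (SE 0.16, and 0.037 with the block). The pair differences of *Krt8*, *Krt18* and *Krt19* all lay between 0.40 and 0.59 on the log2 scale, below the 1.08 to 1.75 of *Krt7*.

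The E2 samples did not overlap with the DMSO samples for any of the 4 genes, a property of 9.14% of the 11339 tested rows in that direction. Being higher in all 3 pairs was a property of 28.1% of these rows. These counts were part of what chose the genes. Ranked by log2 difference, *Krt7* stood at place 81, *Krt18* at 325, *Krt19* at 327 and *Krt8* at 390 of 11339, and the median of the 4 was 0.51 against -0.003 over all tested rows. For scale, limma with Benjamini-Hochberg adjustment called 58 rows (0.512%) in this comparison, 56 of them higher in E2, and 1702 rows (15.0%) with the replicate block.

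**Figure D2:**
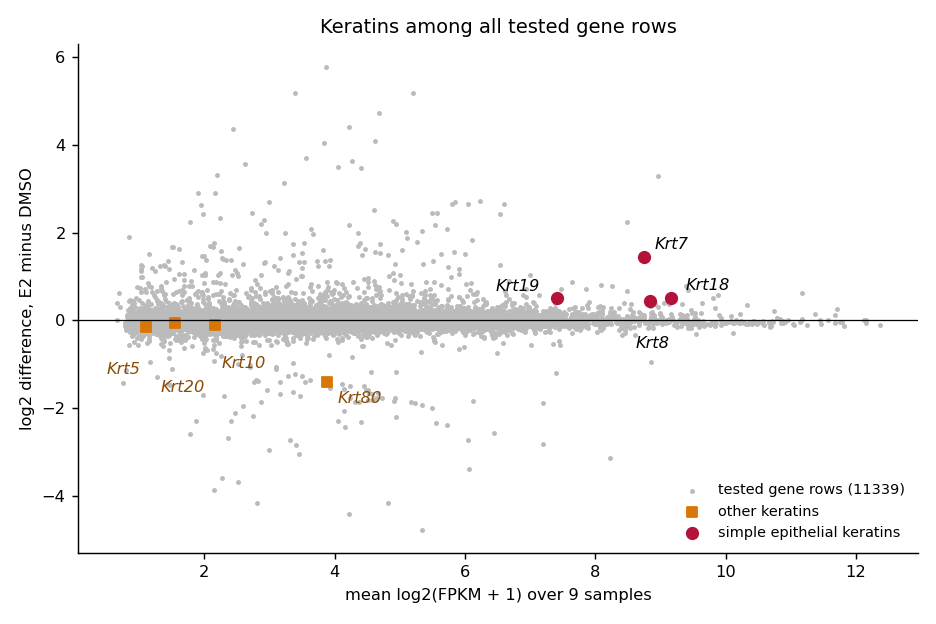
Mean log2(FPKM + 1) over 9 samples (horizontal axis) against the log2 difference of E2 minus DMSO (vertical axis) for the 11339 tested gene rows in grey, the 4 simple epithelial keratins in red and 4 other expressed keratins in orange. *Krt7* lies at 1.45 and *Krt8*, *Krt18* and *Krt19* between 0.44 and 0.52 above the zero line, while the others lie at or below it, *Krt80* through 1 sample listed at 0.

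The comparison of 4OHT with DMSO asked whether the ligand acts on its own. For each of the 4 genes the 4OHT and DMSO samples overlapped, and the differences were small. *Krt7* had no common direction, with log2 differences of -0.32, 0.43 and 0.24 in the pairs of replicates 1, 2 and 3 and a mean of 0.12. That mean became -0.09 without DMSO replicate 2 and 0.40 without DMSO replicate 1. *Krt19* was higher in 4OHT in each pair, by 0.24, 0.25 and 0.16, *Krt8* by 0.18, 0.18 and 0.06 and *Krt18* by 0.12, 0.21 and 0.08. Being higher in all 3 pairs was a property of 30.2% of the tested rows here. Non-overlap in that direction, shown by none of the 4 genes, was found in 4.37% of rows. limma called 0 rows in this comparison, with 313 at an unadjusted p under 0.05, and also 0 with the block, with 1480 at an unadjusted p under 0.05.

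The comparison of E2 with 4OHT set both estrogen receptor ligands side by side, at different doses. It uses the same E2 samples as the comparison with DMSO and is not independent of it. *Krt7* was higher in E2 by 1.39, 1.31 and 1.29 on the log2 scale in the 3 pairs, with a mean of 1.33 and no overlap. *Krt18* was higher by 0.38, 0.29 and 0.46, also with no overlap. *Krt8* was higher by 0.30, 0.22 and 0.37 and *Krt19* by 0.35, 0.16 and 0.38, and the E2 and 4OHT samples of both overlapped. Non-overlap with higher values in E2 was found in 8.40% of the tested rows, and a higher value in all 3 pairs in 24.3%.

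**Figure D3:**
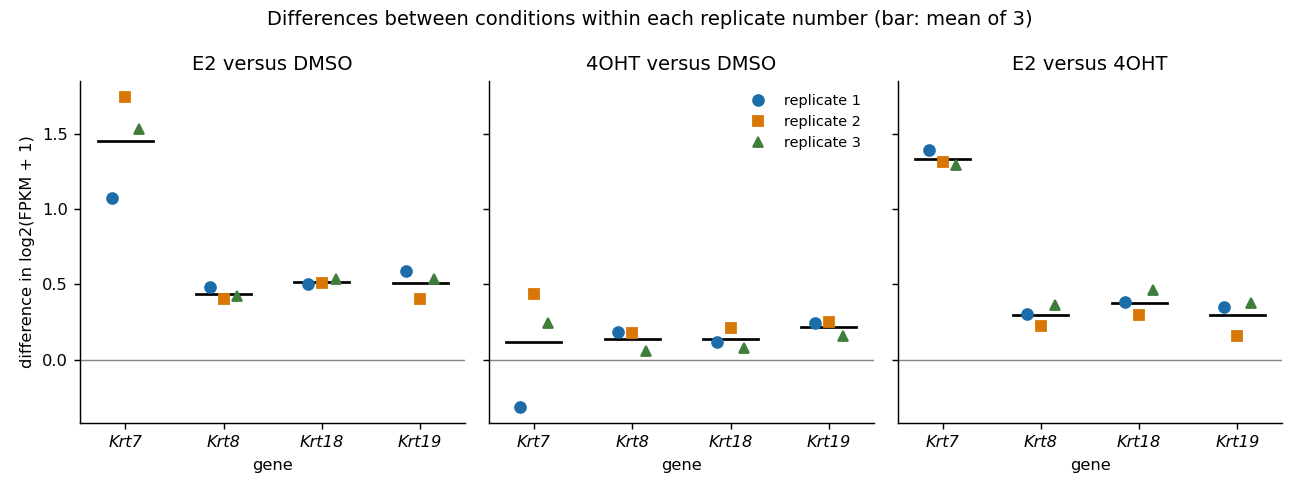
Log2 differences of log2(FPKM + 1) within the 3 same-numbered pairs (points) and their mean (line) for each of the 4 genes, in the comparisons E2 minus DMSO, 4OHT minus DMSO and E2 minus 4OHT. The *Krt7* points lie between 1.08 and 1.75 for E2 minus DMSO and on both sides of 0 for 4OHT minus DMSO, whereas the points of the other genes lie above 0 in every comparison.

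Because filaments need both chain types, the ratio of the chains was taken in each sample. The ratio of *Krt8* to *Krt18* FPKM stayed between 0.762 and 0.846 over the 9 samples, and the highest was 1.11-fold above the lowest. It was 0.815 ± 0.033 (SD, n = 3) in DMSO, 0.771 ± 0.009 in E2 and 0.816 ± 0.017 in 4OHT. In E2 it was 0.771, 0.762 and 0.780, and in DMSO 0.780, 0.819 and 0.846, so that the highest E2 value and the lowest DMSO value were alike, while within each pair E2 was lower. In 4OHT it was 0.815, 0.800 and 0.834, above all E2 values. The ratio of *Krt7* to *Krt19* was more variable. It was 3.94, 1.43 and 1.60 in DMSO, 5.51, 3.64 and 3.19 in E2, and 2.67, 1.63 and 1.70 in 4OHT. The E2 ratio exceeded the DMSO ratio of the same replicate number each time, but DMSO replicate 1 was above the E2 samples of replicates 2 and 3.

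The sum of the 4 genes was 1313, 1305 and 1448 FPKM in DMSO, 2170, 2232 and 2439 in E2, and 1330, 1549 and 1566 in 4OHT. The E2 sums were above all others. *Krt7* made up 33.5%, 17.0% and 18.5% of the sum in DMSO, 42.7%, 33.5% and 31.8% in E2 and 26.5%, 19.4% and 20.2% in 4OHT. The ratio of summed type II (*Krt7* and *Krt8*) to summed type I (*Krt18* and *Krt19*) was 1.43, 0.962 and 1.02 in DMSO, 1.80, 1.40 and 1.34 in E2, and 1.23, 0.997 and 1.04 in 4OHT. It was thus higher in E2 than in DMSO in each pair, while E2 replicates 2 and 3 lay below DMSO replicate 1. These are transcript levels, and the amounts of protein were not measured here.

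**Figure D4:**
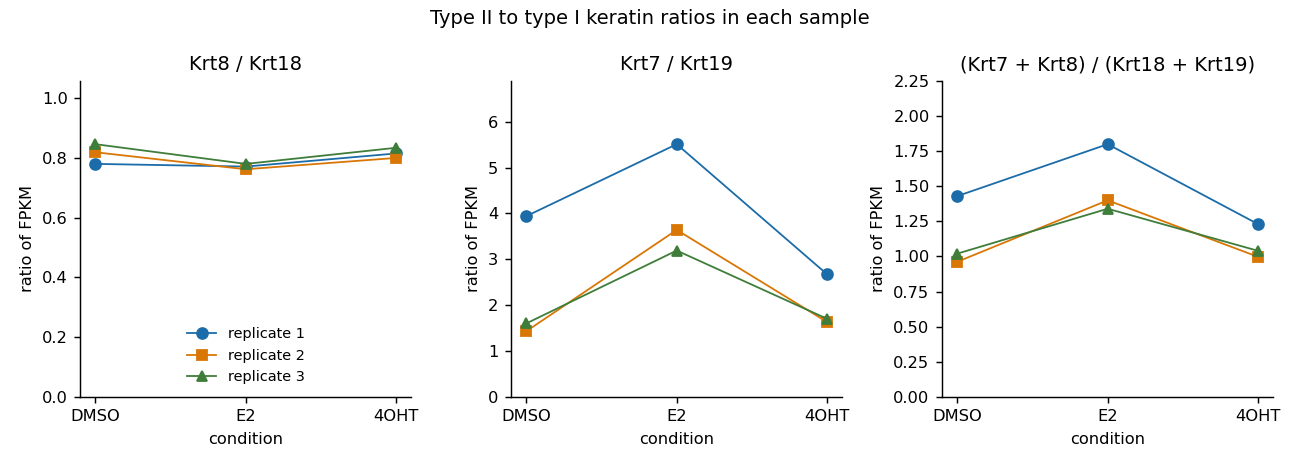
Ratios of FPKM (vertical axes) in each sample for *Krt8* to *Krt18*, *Krt7* to *Krt19* and summed type II to summed type I chains, with lines joining samples of the same replicate number across DMSO, E2 and 4OHT. The *Krt8* to *Krt18* ratio stays between 0.762 and 0.846, while the *Krt7* to *Krt19* ratio runs from 1.43 to 5.51 and is highest in replicate 1 of each condition.

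The replicate number went with the keratin levels, and in opposite directions. *Krt8*, *Krt18* and *Krt19* were lower in replicate 1 than in the mean of replicates 2 and 3 in every condition, at 0.757-fold, 0.797-fold and 0.794-fold for *Krt8* in DMSO, E2 and 4OHT, 0.809-fold, 0.797-fold and 0.795-fold for *Krt18* and 0.693-fold, 0.751-fold and 0.713-fold for *Krt19*. *Krt7* was higher in replicate 1, at 1.79-fold in DMSO, 1.22-fold in E2 and 1.14-fold in 4OHT. For *Krt8*, *Krt18* and *Krt19* the gap between replicate numbers was of a size with the E2 difference, and their standard errors were lower with the block. What the replicate number stands for is not given in the sources used here.

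To see how alike the profiles were, each gene's log2(FPKM + 1) was centred on its mean over the 9 samples and compared with the 11094 tested rows that hold no exact 0, by the root-mean-square difference. These are descriptions over the same 9 samples, which share conditions and replicate numbers. The row closest to *Krt8* was *Krt18*, with a difference of 0.050 on the log2 scale, followed by *Csrp1*, *Pdlim5*, *Trpv2* and *Loxl4*, and *Krt19* came sixth. The row closest to *Krt18* was *Krt8*, followed by *Loxl4*, *Vcl*, *Hgfac* and *Krt19*. *Krt19* was closest to *Csrp1*, at 0.053, and then to *Krt8*, *Dpysl3*, *Hgfac* and *Krt18*. *Csrp1* and *Pdlim5* encode LIM-domain proteins of the actin cytoskeleton and *Vcl* encodes vinculin of focal adhesions. *Csrp1* had mean levels of 309, 406 and 344 FPKM in DMSO, E2 and 4OHT, and *Vcl* of 213, 284 and 224 FPKM.

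*Krt7* had other neighbours. *Lpl*, which encodes lipoprotein lipase, was closest at 0.106, with mean levels of 45.2, 127 and 45.8 FPKM in DMSO, E2 and 4OHT. *Lpar1*, a receptor for lysophosphatidic acid, followed at 0.171 with 15.3, 44.7 and 20.3 FPKM, and then *Ankrd55*, *Ceacam1* and *Samd5* at 0.184 to 0.188. *Krt18* came at place 665 in likeness to *Krt7*, *Krt8* at 1332 and *Krt19* at 2150.

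**Figure D5:**
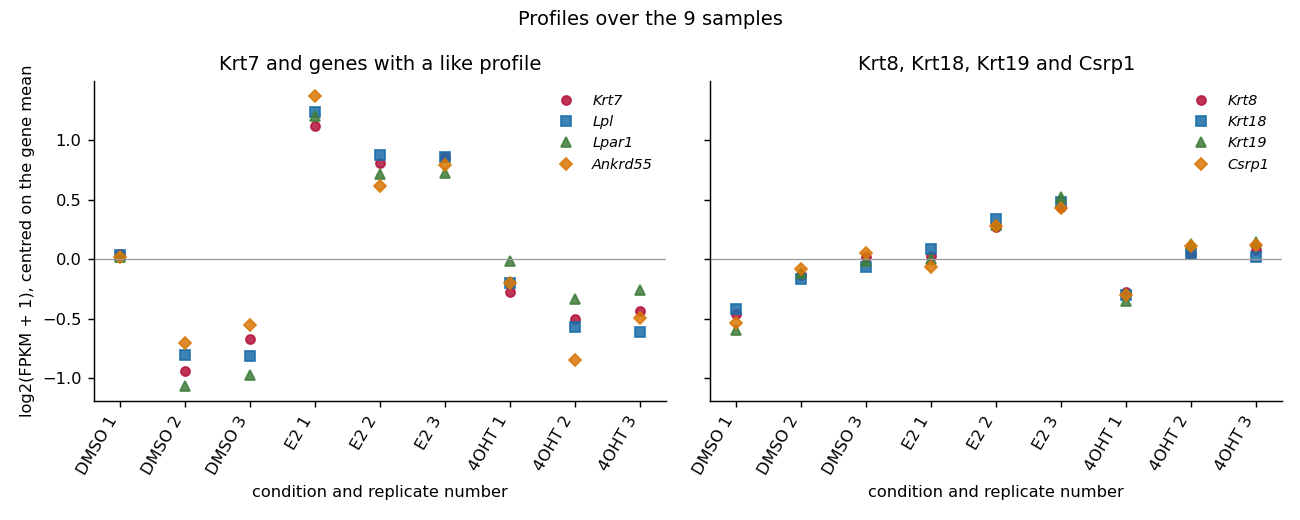
Centred log2(FPKM + 1) (vertical axis) in each of the 9 samples (horizontal axis) for *Krt7* with *Lpl*, *Lpar1* and *Ankrd55*, and for the other 3 keratins with *Csrp1*. *Krt8* and *Krt18* differ by 0.050 as a root mean square and *Krt7* and *Lpl* by 0.106, and replicate 1 is the lowest of its condition for *Krt8*, *Krt18* and *Krt19* and the highest for *Krt7*.

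The other keratins were nearly silent. Of 48 further keratin rows, 9 were at 0 in all samples, 44 had a mean under 1 FPKM and 4 passed the filter of 1 FPKM in at least 3 samples. None of these 4, *Krt80*, *Krt20*, *Krt10* and *Krt5*, was called by limma in any comparison with or without the block, and 1 had an unadjusted p under 0.05, with the block between E2 and 4OHT. *Krt80*, a type II gene, was at 18.1, 20.3 and 20.7 FPKM in DMSO, at 18.7 and 23.6 in E2 replicates 1 and 2 and listed at 0 in E2 replicate 3, and at 15.82, 21.04 and 20.15 in 4OHT. With that 0 set to missing its log2 difference of E2 from DMSO was 0.089, against -1.40 with the 0 kept (adjusted p = 0.67 by limma). *Krt20*, a type I gene of intestinal epithelium, was at 1.08, 2.01 and 2.92 FPKM in DMSO, 0.992, 1.84 and 2.77 in E2 and 1.351, 2.103 and 3.164 in 4OHT. *Krt10* of suprabasal epidermis had means of 3.69, 3.36 and 3.39 FPKM in DMSO, E2 and 4OHT, and *Krt5* of basal cells had means of 1.26, 1.03 and 1.21. Another *Krt10* row, below the filter, had means of 0.63, 0.53 and 0.59 FPKM in these conditions. From 50 kb before *Krt7* to 50 kb past *Krt18* stood 26 rows, 21 of them keratins, and 22 of the 26 had a mean under 1 FPKM in DMSO.

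Counting calls of either direction, genes for proteins that hold or bind keratin filaments had shares near the background in E2 against DMSO. At an unadjusted p with the block, the shares of desmosome, hemidesmosome and plakin genes and of keratin partners were above that of all rows. Of 15 tested desmosome, hemidesmosome and plakin genes, limma called 0 in E2 against DMSO without the block, with 2 at an unadjusted p under 0.05 (10.9% of all tested rows). With the block 2 of 15 were called, beside 15.0% of all rows, with 8 at an unadjusted p under 0.05 (32.9% of all rows). Both called genes were lower in E2, a direction called in 4.63% of all rows. They were the plakin *Evpl* (log2 difference -0.32, adjusted p = 0.0302) and the keratin-binding *Fbf1* (-0.16, adjusted p = 0.0375). Against 4OHT the block gave 4 calls of 15 beside a background of 16.2%, with the integrin *Itgb4* (0.41, adjusted p = 0.0184) and desmoplakin, *Dsp* (0.36, adjusted p = 0.036), higher in E2 and *Pkp1* (-0.32, adjusted p = 0.0261) and *Itga6* (-0.13, adjusted p = 0.0487) lower. The list's median log2 difference of E2 from DMSO was 0.024.

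Of 11 tested genes for 14-3-3 proteins and other partners of keratins, 0 were called in E2 against DMSO without the block, with 2 at an unadjusted p under 0.05 (10.9% of all rows), and 2 were called with it, beside 15.0% of all rows. With the block 5 of 11 had an unadjusted p under 0.05 in limma, beside 32.9% of all rows. *Ywhaz*, which encodes 14-3-3 zeta, rose with E2 from 304 ± 13.2 to 369 ± 10.0 FPKM (SD, n = 3), a log2 difference of 0.28 with an adjusted p of 0.00629 in limma with the block and 0.0904 without. *Ywhab* rose by 0.12 (adjusted p = 0.0364 with the block and 0.364 without). Of 5 tested intermediate filament genes other than keratins none was called in any comparison, and at an unadjusted p under 0.05 with the block there was 1 in each comparison with E2. *Vim*, which encodes vimentin of mesenchymal and many cultured cells, was above every keratin at 1731, 1779 and 1817 FPKM as means of DMSO, E2 and 4OHT, and *Lmna* of the nuclear lamina was at 236, 227 and 241 FPKM.

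Of 7 tested epithelial transcription and splicing factors, 0 were called in E2 against DMSO without the block, with 2 at an unadjusted p under 0.05 (10.9% of all rows), and 3 were called with it, beside 15.0% of all rows. With the block 4 of 7 had an unadjusted p under 0.05 in limma, beside 32.9% of all rows. *Tfap2c*, an AP-2 factor, was at 3.08 ± 0.98 FPKM in DMSO and 5.42 ± 1.08 in E2 (SD, n = 3), a log2 difference of 0.67 (adjusted p = 0.00452 in limma with the block and 0.30 without). *Klf4* was at 6.55 ± 1.00 and 9.55 ± 0.72 FPKM, a difference of 0.49 (adjusted p = 0.00358 with the block and 0.167 without). The splicing factor *Esrp2* was lower by 0.31 (adjusted p = 0.0125 with the block and 0.623 without). The same 3 genes were called with the block in E2 against 4OHT, at log2 differences of 0.54, 0.31 and -0.29, beside 16.2% of all rows. *Klf5* was called only in E2 against 4OHT with the block, at -0.23 (adjusted p = 0.0371). With replicate 1 left out of all conditions, the block kept only *Tfap2c* and *Klf4* in E2 against DMSO among the calls named in these lists. *Elf3*, an epithelial ETS factor named here after its values were seen, was at 35.5, 14.6 and 16.2 FPKM in DMSO, at 116 and 75.8 in E2 replicates 1 and 2 and listed at 0 in E2 replicate 3, and at 32.7, 21.5 and 22.3 in 4OHT. Its log2 difference of E2 from DMSO was -0.04 with the 0 kept, 2.15 with the 0 set to missing (SE 0.38, adjusted p = 0.0744 in limma), and 2.03 with the block as well (SE 0.15, adjusted p = 0.000217). In 4OHT against DMSO none of these lists had a call with or without the block, while at an unadjusted p under 0.05 with the block there were 5 of 15 anchoring genes, 2 of 11 partners, 1 of 7 factors and 0 of 5 filament genes, beside 13.1% of all rows.

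The label of a secretory oviductal line was set against marker genes. *Pax8*, the transcription factor of Müllerian secretory cells, was present at means of 119, 133 and 120 FPKM in DMSO, E2 and 4OHT, but only 3 of 7 secretory and epithelial markers reached a mean of 1 FPKM. The epithelial adhesion genes *Epcam* and *Cdh1* were near 0, at means of 0.038 and 0.33 FPKM over the 9 samples, and the oviductal glycoprotein *Ovgp1* was at 1.86. The summed secretory and epithelial markers were between 120 and 151 FPKM in DMSO, 134 and 157 in E2 and 119 and 150 in 4OHT. Mesothelial and ovarian surface markers summed to between 166 and 219 FPKM in DMSO, 141 and 192 in E2 and 173 and 213 in 4OHT. These sums were mostly *Msln* and *Wt1*, at means of 153 and 33.1 FPKM over the 9 samples. Only 3 of the 6 markers on this list reached a mean of 1 FPKM. *Upk3b* was at 2.6, *Upk1b* and *Lrrn4* were near 0 and *Calb2* was at 0. Ciliated markers, of which 4 of 7 had a row, summed to between 18.0 and 20.6 FPKM in DMSO, 13.8 and 17.7 in E2 and 18.4 and 20.5 in 4OHT, mostly through *Foxj1*. Stromal, basal, leukocyte and endothelial lists each summed to at most 17.2 FPKM in every sample, with *Thy1* and *Cd3e* at 0. The part of these marker levels in the keratin differences was not tested. In bulk RNA fewer cells of a kind and less RNA per cell cannot be told apart.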

How the data were processed

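RNA of 9 samples, 3 each of DMSO, E2 and 4OHT, was sequenced by the authors as directional 50 bp single-end polyadenylated libraries on the Illumina platform. The authors aligned the trimmed reads to mm10 with TopHat2 (2.0.8b) and estimated known genes of a UCSC annotation with Cufflinks and Cuffdiff (2.1.1). The deposited values are the resulting FPKM. Whether a further scaling between libraries was applied is not given in the sources used here. The paper lists the total reads of each sample. The files hold no counts per gene, so that the reads behind each FPKM value are unknown here and no counting interval is given. Summed FPKM were 522517 to 588640 per sample, and 11037 to 11175 rows reached 1 FPKM. The table holds 293 rows with joined names and 362 symbols in several rows, kept as separate rows.

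Groups and replicate numbers came from the labels. Rows that reached 1 FPKM in 3 or more samples, 11339 in all, were tested on log2(FPKM + 1), whose differences understate those of low genes, with limma 3.58.1 in R 4.3.3 (1 coefficient per condition, all 9 samples, a variance trend, two-sided, Benjamini-Hochberg adjustment, threshold 0.05). The p-values set each difference against the spread between these samples, moderated by that of other genes. With the block, it is the spread left after the replicate number is taken out. Same-numbered samples of different conditions deviated together from their condition means, with correlations of 0.053 to 0.293 over all tested rows and of 0.523 to 0.828 over the 11094 rows without an exact 0. The numbers were therefore taken as pairing the samples, a choice made from the latter rows, and the replicate number as a block is given beside the main test. Coordinates came from GENCODE M21 and promoters from RefSeq. The tests were checked on simulated data with no replicate effect and with larger differences than most named here. That check does not bear on the smaller differences called with the block.

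The 4 genes, the gene lists and the likeness measure were chosen with earlier results of these data known. Genes named were the 4 keratins, every other keratin with a mean of at least 1 FPKM, list members called in any comparison (at most 6 per list), and the 5 rows most like each keratin. Outside this rule stood *Vim*, *Lmna*, the cell type markers, genes that overlap a keratin, and those named after their values were seen. Other settings tried were no filter, a pseudocount of 0.1, equal totals, upper-quartile scaling, no variance trend, only the 6 samples compared, the block, zeros set to missing (also with the block), each sample left out in turn, and replicate 1 left out of all conditions (also with the block).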

Additional observations from a re-analysis of the deposited data

How the results depend on the processing

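Under 20 alternatives the log2 difference of E2 from DMSO ran from 1.24 to 1.73 for *Krt7*, 0.30 to 0.55 for *Krt8*, 0.42 to 0.63 for *Krt18* and 0.34 to 0.65 for *Krt19*. For E2 from 4OHT the ranges were 1.24 to 1.40, 0.19 to 0.41, 0.27 to 0.49 and 0.13 to 0.43. For 4OHT from DMSO they were -0.09 to 0.40, 0.007 to 0.25, 0.035 to 0.25 and 0.042 to 0.38. Several settings, such as no filter, no variance trend, the block or zeros set to missing, could not change these differences. The ends of all these ranges came from fits with a sample left out.

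The counts of called rows varied with the setting, and the cause was not tested. For E2 against DMSO, with 58 calls, equal FPKM totals gave 33, only the 6 samples 8, the replicate block 1702, and the block with exact zeros as missing 2118. For 4OHT against DMSO, with 0 calls, no filter gave 5, only the 6 samples 3, and the block with exact zeros as missing 21. For E2 against 4OHT, with 18 calls, a pseudocount of 0.1 gave 10, no filter 5, only the 6 samples 7, the block 1840, exact zeros as missing 37, and both together 2470. Without replicate 1 in all conditions the counts were 125, 4 and 72, and with the block as well, an alternative chosen after seeing the data, 542, 4 and 234. With 1 sample left out in turn they ran from 8 to 50, from 0 to 2 and from 0 to 23. No other keratin was called under any of these settings.

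The sign of the E2 difference turned for *Krt80* with exact zeros as missing (0.089, or 0.129 with the block) and between -2.22 and 0.089 when samples were left out, 0.089 being without E2 replicate 3, the sample listed at 0. For *Krt20* it ran from -0.31 to 0.17 when samples were left out (0.149 without DMSO replicate 3). The genes of the context lists that were named as called passed the threshold in no fit without the block. They passed with the block over all samples, and with replicate 1 also left out only *Tfap2c* and *Klf4* in E2 against DMSO did. Counts per gene are unknown here, which limits the low keratins most.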

Other observations

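Of the 48 keratin rows other than the 4 simple epithelial keratins, 7 were higher in E2 than in DMSO in all 3 same-numbered pairs and 3 were lower, beside 28.1% and 24.3% of all tested rows. The tested rows passed a filter that most of the 48 did not, and 9 of the 48 were at 0 in all samples. These shares are therefore not like for like, and most of the 48 rows have no test. The following 3 weakly expressed genes are named after their values were seen. *Krt39*, a type I gene, was at 0.31, 0.052 and 0.059 FPKM in DMSO and at 0.74, 0.38 and 0.49 FPKM in E2. *Krt83*, a type II gene near *Krt7*, was at 0.66, 0.23 and 0.086 FPKM in DMSO and at 1.20, 0.83 and 0.48 FPKM in E2. *Krt85* was at 0.69, 0.18 and 0.20 FPKM in DMSO and at 0.96, 1.16 and 0.51 FPKM in E2. The DMSO and E2 values of *Krt83* and *Krt85* overlapped. Both genes also stand in a row with joined names, and reads of near-identical keratins may be split between rows, so their levels are uncertain.

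Among the marker genes, limma called none in E2 against DMSO without the block. With the block it called 1 of 3 tested secretory and epithelial, 1 of 3 ciliated, 2 of 3 mesothelial and ovarian surface and 1 of 1 endothelial markers, beside 15.0% of all rows, and none on the stromal, basal and leukocyte lists. *Pax8* was higher in E2 by 0.17 on the log2 scale (adjusted p = 0.0432 with the block and 0.715 without). The other tested genes of its list were lower in E2. *Ovgp1* was lower by 0.29 (adjusted p = 0.101 with the block and 0.418 without) and *Cldn4* by 0.19 (adjusted p = 0.0903 with the block and 0.847 without). *Foxj1* was lower by 0.40 (adjusted p = 0.0176 with the block and 0.304 without), whereas *Rsph1* of the same list differed by 0.19 in the other direction (adjusted p = 0.0533 with the block and 0.306 without). *Upk3b* was lower by 0.58 (adjusted p = 0.00612 with the block and 0.0844 without) and *Msln* by 0.26 (adjusted p = 0.012 with the block and 0.731 without). *Kdr* was at 0.60 FPKM in DMSO and 1.17 in E2, a log2 difference of 0.44 (adjusted p = 0.00508 with the block and 0.114 without), while the endothelial genes *Cdh5*, at 0.078 and 0.079 FPKM, and *Pecam1*, at 0.050 and 0.055 FPKM, did not pass the filter.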
